A study of Rattus norvegicus with 18 samples.

Results

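Bufalin and periplocin were set side by side at 7339 pairs of m6A peaks in H9c2 cells, a myoblast line of rat heart. A pair joined 1 peak of the bufalin list with 1 peak of the periplocin list on the same chromosome, strand and gene name. The spans from start to end, introns included, overlapped by at least 50% of both. In 3324 pairs a peak joined several exon blocks, and there the shared part of the exon bases can be smaller. By overlap of exon blocks instead of spans the rule gave 7648 pairs. The bufalin list held 9866 peaks and the periplocin list 9170, so 2527 bufalin peaks and 1831 periplocin peaks entered no pair, and no peak entered more than 1. The pairs lay on 4276 genes, of which 4145 are protein coding in RefSeq. The study compared cells treated with bufalin, cells treated with periplocin and control cells, all labelled wild type, with 3 immunoprecipitated (IP) and 3 input libraries per condition and 18 in all. Its stated purpose was to ask whether m6A takes part in the cardiotoxicity of the compounds. The labels give no dose or time. Nothing in them says that replicates came from separate cultures, so the spread between these samples may be technical. The authors' p-values of RNA measure that spread. Whether those of a peak do is unknown, because the peak caller and any pooling of replicates are not stated. Doses of the compounds may differ, and their values are set beside each other as deposited.

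N6-methyladenosine (m6A) is a methyl mark that a nuclear complex around Mettl3 and Mettl14 writes on mRNA, that Fto and Alkbh5 can remove, and that YTH domain proteins read to steer splicing, translation and decay of the transcript. Methylated RNA immunoprecipitation sequencing (MeRIP-seq) pulls down marked fragments with an antibody, and a peak is a stretch of exon that is denser in the IP than in the input. Bufalin and periplocin are cardiotonic steroids, which bind the catalytic subunit of the sodium and potassium pump (Na/K-ATPase) and so raise sodium and calcium in heart muscle cells. The main rodent form of that subunit binds them less tightly than the human one. In mouse heart the level of Mettl3 is known to affect the growth of muscle cells. They differ in structure: bufalin, from toad secretions, is a bufadienolide aglycone, whereas periplocin, from the plant Periploca, is a cardenolide with sugars attached.

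The deposited files hold 1 value per peak and comparison. Each peak has a fold enrichment, read as IP over input, and a change of m6A on the log2 scale, read as treated over control, with the authors' p and false discovery rate (FDR). No standard error and no value per library comes with a peak, so the differences between the compounds below are values without a test, and both changes rest on the same control libraries. All 7339 pairs had an enrichment FDR under 0.05 in both lists. The labelled cell type was checked on the deposited expression tables. The mesenchymal markers Vim and Col1a1 had normalised means of 72405 and 412632 in the bufalin table and 66470 and 383423 in the periplocin table, and the myoblast markers Myod1 and Des had 716 and 1037 in the bufalin table and 631 and 983 in the periplocin table. Of 12 listed markers of striated and heart muscle, 5 reached a mean of 100 and 4 were under 10, with Actc1 and Myf5 at 0. All 4 smooth muscle markers reached 100, as did 1 of 4 leukocyte, 1 of 4 epithelial and 0 of 4 endothelial markers.

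Paired peaks, which overlap by the rule, had similar fold enrichment in both lists. The files do not state whether the enrichment of a list was computed from the treated libraries alone or from treated and control libraries together. The heights may thus share control libraries, and enrichment with a compound means here the value of its list. Median fold enrichment over the pairs was 1.90 with bufalin (quartiles 1.61 and 2.29) and 1.85 with periplocin (quartiles 1.57 and 2.24). The ratio of bufalin over periplocin enrichment within a pair had a median of 1.01 and quartiles of 0.955 and 1.09. Enrichment was higher with bufalin in 4054 pairs (55.2%), lower in 3093 and equal in 192. It was at least 1.5 times higher with bufalin in 51 pairs and at least 1.5 times lower in 21. The start and end coincided in 4787 pairs (65.2%), and there the ratio ran between 0.594 and 2.15, against 0.357 and 5.37 over all pairs. Peaks that entered no pair had a median enrichment of 1.61 in both lists and a median length of 101 exon bases, against 151 bases for paired peaks.

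The pairs with the highest enrichment in both lists lay on Shox2, Esf1, Ahi1, Hsp90aa1 and Nfe2l1. Shox2, a homeobox factor of the sinoatrial node, had the highest lower value, with an enrichment of 15.6 with bufalin and 13.3 with periplocin (chr2:164118273-164118714, build rn6, coordinates of the bufalin peak as throughout). Esf1, a nucleolar factor of ribosomal RNA processing, had 16 with bufalin and 11.7 with periplocin. Ahi1, a protein of the primary cilium, had 11.6 with bufalin and 11.4 with periplocin. Nfe2l1, which drives proteasome genes, had 7.45 with bufalin and 7.56 with periplocin. The changes from control at these 4 peaks lay between -0.26 and 0.09 with bufalin and between -0.69 and 0.00 with periplocin, and none was called.

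Hsp90aa1, which encodes an inducible form of the chaperone Hsp90, combined a high peak with a lower value with either compound. Its peak at chr6:135110675-135111051 had an enrichment of 8.19 with bufalin and 8.04 with periplocin, and an m6A change of -1.90 with bufalin and -1.98 with periplocin. The authors' unadjusted p was 0.00138 with bufalin and 0.000407 with periplocin, and the FDR was 0.668 and 0.310, so neither change was called. A second pair of the gene had changes of -0.29 with bufalin and -0.96 with periplocin. The periplocin list held a further Hsp90aa1 peak at chr6:135112011-135112793, which entered no pair. Its change was -3.16 (the authors' unadjusted p 0.000126, FDR 0.187), the largest fall of the gene in either list. The RNA of Hsp90aa1 differed from control by -0.05 ± 0.05 with bufalin and 0.01 ± 0.04 with periplocin (log2 ± SE, the authors' deposited tables).

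**Figure D1:**
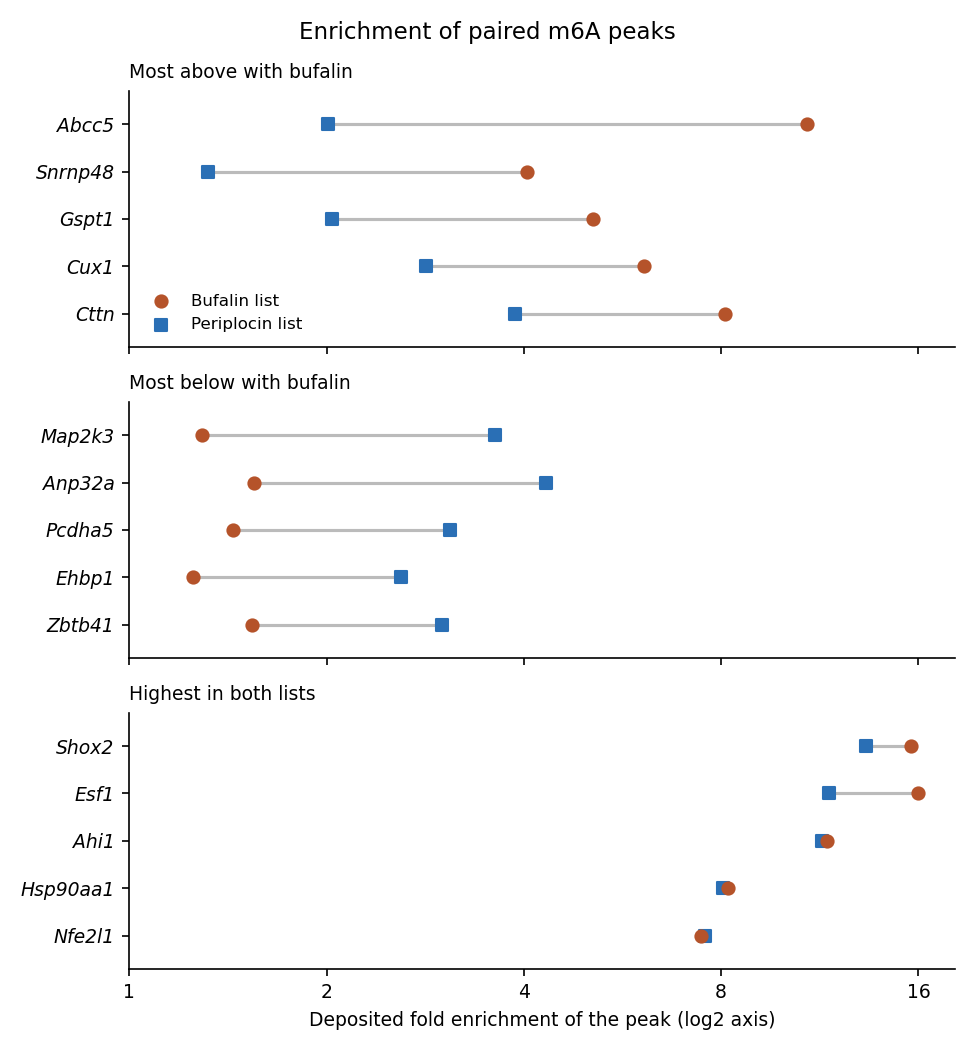
Fold enrichment, on a log2 axis, of the peak in the bufalin list (circles) and in the periplocin list (squares) for the 5 pairs most above with bufalin, the 5 most below and the 5 highest in both lists. Abcc5 stands at 10.8 with bufalin and 2.01 with periplocin, Map2k3 at 1.29 and 3.61, while Ahi1, Hsp90aa1 and Nfe2l1 lie close together.

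At the widest gaps the enrichment of 1 compound was 2 times that of the other or more, or close to it. Enrichment was furthest above periplocin on Abcc5, an exporter of organic anions and cyclic nucleotides, with 10.8 with bufalin and 2.01 with periplocin (chr11:84438739-84438988). Snrnp48, a protein of the minor spliceosome, had 4.04 with bufalin and 1.32 with periplocin. Gspt1, a translation release factor, had 5.10 with bufalin and 2.04 with periplocin. Cux1, a homeobox transcription factor, had 6.11 and 2.84 at an identical span, and Cttn, which encodes the actin binding protein cortactin, had 8.11 with bufalin and 3.88 with periplocin. The Cttn peak covered 644 exon bases with bufalin and 396 with periplocin. The enrichment of Abcc5, Cux1 and Snrnp48 differed without a matching change from control. The changes were 0.14 with bufalin and 0.02 with periplocin on Abcc5, 0.00 and -0.03 on Cux1, and -0.03 and 0.06 on Snrnp48.

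Enrichment was furthest below periplocin on Map2k3, the kinase that activates p38, with 1.29 with bufalin and 3.61 with periplocin. Anp32a, a nuclear inhibitor of protein phosphatase and a histone chaperone, had 1.55 with bufalin and 4.33 with periplocin. A peak of the protocadherin gene Pcdha5 had 1.44 and 3.09, Ehbp1, which links endocytic transport to actin, had 1.25 and 2.60, and the zinc finger gene Zbtb41 had 1.54 and 3. In these 5 pairs the bufalin peak covered fewer exon bases than the periplocin peak. It covered 100 bases with bufalin and 150 with periplocin on Map2k3, 100 and 546 on Ehbp1, and 200 and 893 on Zbtb41. Most exon bases of the Ehbp1 and Zbtb41 periplocin peaks thus lay outside the bufalin peak, although the spans met the rule. Over all pairs, the bufalin peak was longer in 1468, equal in 4870 and shorter in 1001. Among the 51 pairs with at least 1.5 times higher enrichment with bufalin, the bufalin peak was longer in 19 and shorter in 5. Among the 21 pairs at least 1.5 times lower with bufalin, it was longer in 2 and shorter in 14. The part of peak length in these gaps was not tested.

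Few peaks were called changed from control with either compound (the authors' FDR under 0.05), and a peak without a call may still have changed. The pairs held 3 called changes, of which the 1 with periplocin rests on a p that may be a placeholder. With bufalin, 2 of 7339 pairs were called, 1 higher and 1 lower, against 0.0304% of all peaks of its list, 0.0203% higher and 0.0101% lower. With periplocin, 1 pair was called, higher, against 0.0436% of all peaks of its list, 0.0327% higher and 0.0109% lower. No pair was called with both compounds. At an unadjusted p under 0.05 there were 232 pairs with bufalin, 51 higher and 181 lower, against 3.04% of its list (0.77% higher and 2.27% lower). With periplocin there were 251 pairs, 99 higher and 152 lower, against 3.37% of its list (1.47% higher and 1.9% lower). These are 3.16% and 3.42% of the pairs, close to the background. The FDR was equal to 1 in 7305 pairs with bufalin and 7254 with periplocin.

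The pair called higher with bufalin lay on Dock1, which activates the small GTPase Rac in cell migration (chr1:207330475-207340222). Its m6A change was 1.37 with bufalin and 1.36 with periplocin, a difference of 0.01. The FDR was 0.0309 with bufalin and 0.849 with periplocin, so the call in 1 list does not show that the compounds differ there. Enrichment was 2 with bufalin and 1.55 with periplocin.

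The pair called lower with bufalin lay on Rere, a nuclear corepressor of the atrophin family (chr5:167657722-167657822). Its change was -1.27 with bufalin and -0.68 with periplocin, with an FDR of 0.0339 and 1, and a difference of -0.59. Rere carried 6 other pairs, whose changes lay between -0.08 and 0.18 with bufalin and between -0.36 and 0.10 with periplocin. The called peak thus lay below the other peaks of its gene with either compound. The RNA of Rere differed from control by 0.19 ± 0.07 with bufalin (adjusted p = 0.323, DESeq2) and by 0.07 ± 0.05 with periplocin (adjusted p = 0.919), in the authors' deposited tables.

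The pair called higher with periplocin lay on Dlg4, a scaffold protein of synapses (chr10:56627596-56636087). Its change was 0.19 with bufalin and 0.24 with periplocin. The log10 p deposited with periplocin was -434, far from the next lowest value of that list, -6.96, while the p with bufalin was 0.638. As a natural logarithm the same value is -999, so it may be a placeholder rather than a computed p. Without it no periplocin pair was called. A second Dlg4 pair had changes of -0.42 with bufalin and -0.46 with periplocin. The other 4 called peaks of the lists entered no pair and had no overlapping peak in the other list. They lay on Smarcb1 with bufalin and on Zmynd19, Anp32a and Rufy2 with periplocin.

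**Figure D2:**
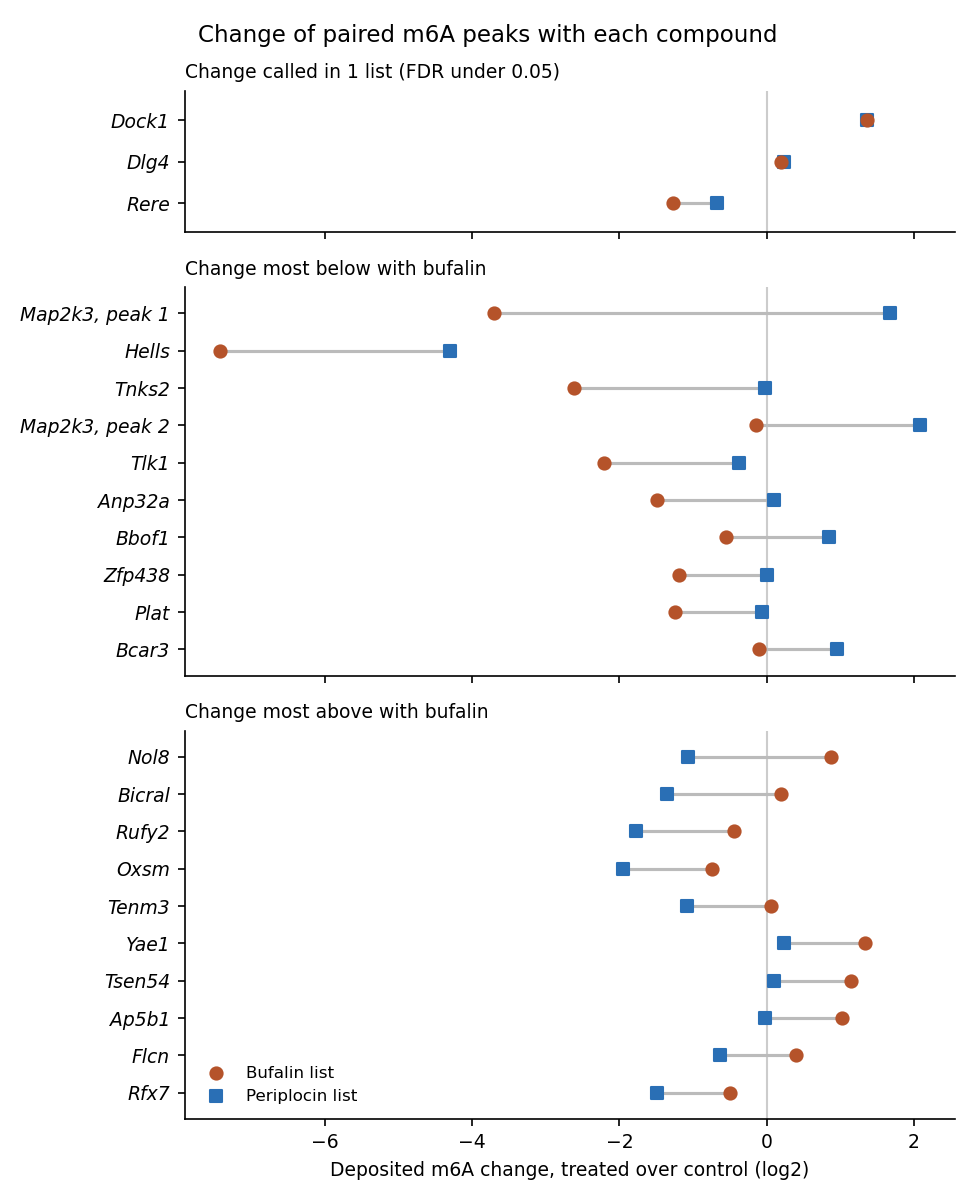
Deposited m6A change from control on the log2 scale with bufalin (circles) and periplocin (squares), for the 3 pairs called in 1 list and the 10 pairs with the lowest and the 10 with the highest difference between the compounds. Dock1 has nearly equal changes with both compounds, while Map2k3 lies at -3.70 with bufalin and 1.68 with periplocin.

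Over all pairs the change from control was small with both compounds. Its median was -0.03 with bufalin (quartiles -0.13 and 0.08) and -0.02 with periplocin (quartiles -0.14 and 0.10). The difference of bufalin minus periplocin had a median of -0.01, quartiles of -0.11 and 0.10, and 5th and 95th percentiles of -0.35 and 0.35. It was at least 0.25 in size in 1350 pairs (18.4%), at least 0.5 in 280 and at least 1 in 20. Of these 20 pairs, 9 were higher and 11 lower with bufalin, none had a called change, and 8 had an unadjusted p under 0.05 in either list. The bufalin peak was longer in 6 of the 9 higher pairs and equal in 3. Among the 11 lower pairs it was equal in 7 and shorter in 4. The part of peak length was not tested. All 4 pairs that differed by at least 2 were lower with bufalin.

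The spread of this difference followed the level of the RNA and the length of the peak. With the pairs split into 4 equal bins by the RNA mean of the gene, its interquartile range was 0.339 in the lowest bin, 0.239 and 0.189 in the middle bins and 0.141 in the highest. It was 0.254 for peaks of up to 110 exon bases, 0.237 for peaks over 110 and up to 210 bases and 0.162 for longer ones. The 20 pairs that differed by at least 1 had a median RNA mean of 1217, against 3036 over all pairs. A difference of a given size thus stood further out among pairs on highly expressed genes and on long peaks.

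**Figure D3:**
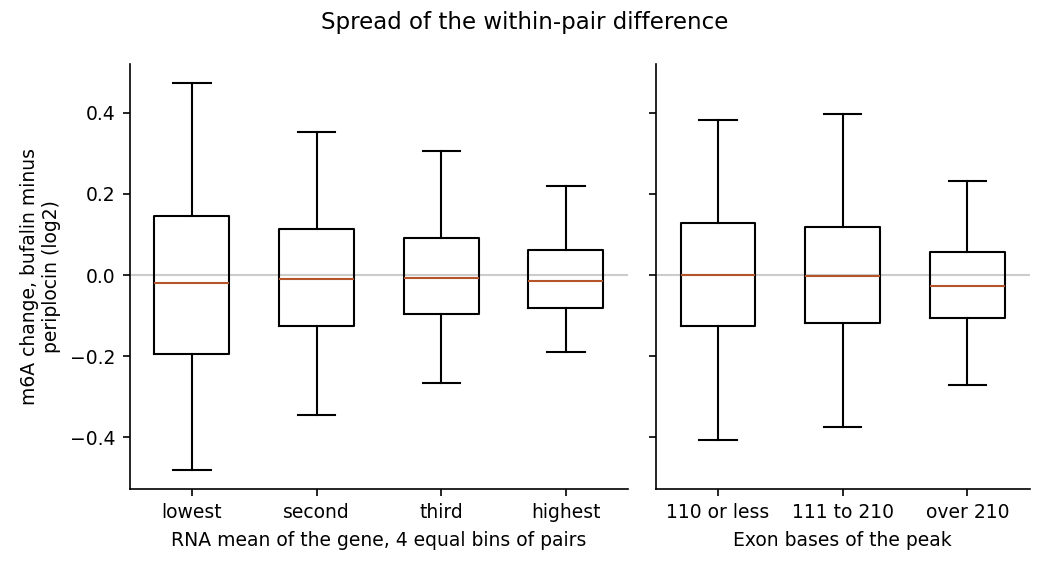
Difference of the m6A change, bufalin minus periplocin on the log2 scale, in 4 equal bins of the RNA mean of the gene (left) and by exon bases of the peak (right). Boxes show quartiles, red lines medians and whiskers the 5th and 95th percentiles, and the boxes narrow from 0.339 in the lowest RNA bin to 0.141 in the highest.

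The pairs with the largest differences of change were named after their values were seen, and 2 of the 4 that differed by at least 2 lay on Map2k3. Map2k3 had a change of -3.70 with bufalin and 1.68 with periplocin at its first pair (chr10:45107544-45108987), a difference of -5.38, with an unadjusted p of 0.000427 with bufalin and 0.0295 with periplocin. At its second pair it had -0.14 with bufalin and 2.08 with periplocin, with p of 0.911 and 0.107. Both Map2k3 pairs were lower with bufalin, and none of the 4 changes was called. Its RNA differed from control by -0.14 ± 0.09 with bufalin and 0.04 ± 0.07 with periplocin (log2 ± SE, the authors' deposited tables).

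Hells, a chromatin remodeller needed for DNA methylation, had the lowest change of all pairs, -7.43 with bufalin and -4.30 with periplocin, at an identical span with an enrichment of 2.50 in both lists. The deposited p of these changes was 1 with bufalin and 0.164 with periplocin. Tnks2, a tankyrase on an unplaced sequence of the build, had -2.62 with bufalin and -0.02 with periplocin (p of 0.000813 and 0.269). Tlk1, a kinase of chromatin assembly, had -2.21 and -0.37. At its pair Anp32a had -1.49 with bufalin and 0.10 with periplocin. The periplocin list held a further Anp32a peak, 5′ of the pair at chr8:67326718-67327020, which was called higher (1.10, FDR 0.0437) and had no counterpart in the bufalin list. Plat, the tissue plasminogen activator, had -1.25 with bufalin and -0.06 with periplocin.

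In the opposite direction, Nol8, a nucleolar protein, had 0.87 with bufalin and -1.07 with periplocin, a difference of 1.94 with p of 0.292 and 0.325. Bicral, a subunit of a SWI/SNF chromatin remodelling complex, had 0.19 with bufalin and -1.35 with periplocin. Rufy2, an endosomal protein, had -0.45 with bufalin and -1.77 with periplocin at its pair, and a second Rufy2 peak of the periplocin list, with no overlapping bufalin peak, was called higher at 5.71 (FDR 0.00603). The neighbouring peaks of Rufy2 thus lay on opposite sides of control with periplocin. Yae1 had 1.33 with bufalin and 0.24 with periplocin (p of 0.000537 and 0.759), and Tsen54, a subunit of the tRNA splicing endonuclease, had 1.15 and 0.09. The bufalin peak was longer than the periplocin peak on Nol8 (150 and 100 exon bases), Bicral and Rufy2, and equal on Yae1 and Tsen54. The size of a change and its p were loosely tied: 14 of the 33 changes of at least 1 in size with bufalin, and 11 of 27 with periplocin, had an unadjusted p over 0.05.

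Other pairs had a p under 0.05 in both lists and changes of the same sign, and were also named after their values were seen. B4gat1, a glycosyltransferase of dystroglycan, had -2.45 with bufalin and -3.27 with periplocin, a difference of 0.82. Ccar1, a coactivator in cell cycle and apoptosis signalling, had 2.04 with bufalin and 1.61 with periplocin. Uvssa, a factor of transcription-coupled repair, had -1.29 and -1.31. Cttn had 1.73 with bufalin and 1.04 with periplocin, a difference of 0.69, beside the difference in enrichment given above. Its periplocin peak covered 51.7% of the bufalin span. A second periplocin peak of Cttn, with a change of -0.20, lay inside that span and entered no pair. Since the same control libraries stand behind both values, a change of the same sign in the 2 lists is not independent evidence for either.

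Where the change differed widely between the compounds at identical spans, enrichment mostly differed in the same direction. Among pairs with identical spans and a difference of change of at least 0.25, enrichment was higher with the compound that had the higher change in 691 of 787 (87.8%), and at a difference of at least 0.5 in 132 of 143 (92.3%). Median log2 enrichment of bufalin over periplocin was -0.26 where the change was lower with bufalin by more than 0.5, and 0.34 where it was higher by more than 0.5. This is why a positive change was read as treated over control in both lists. In a linear fit over the 4787 pairs with identical spans, the log2 enrichment difference had a coefficient of 0.43 on the bufalin change and -0.49 on the periplocin change. Both lie under 1 in size, and the share of control libraries in the enrichment was not tested. Among the 20 pairs that differed by at least 1, the enrichment difference had the sign of the change difference in 19, and Hells, with equal enrichment, was the other. Rfx7, with a change difference of 0.999, ran the opposite way, with an enrichment of 1.47 with bufalin and 1.64 with periplocin. The widest enrichment gaps, given above, followed the change less closely. The change difference was -0.09 on Snrnp48 and 0.07 on Zbtb41, opposite in sign to their enrichment difference. It was 0.12 on Abcc5, 0.03 on Cux1 and -0.10 on Ehbp1. It had the same sign and a size of at least 0.41 on Gspt1, Cttn, Map2k3, Anp32a and Pcdha5.

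**Figure D4:**
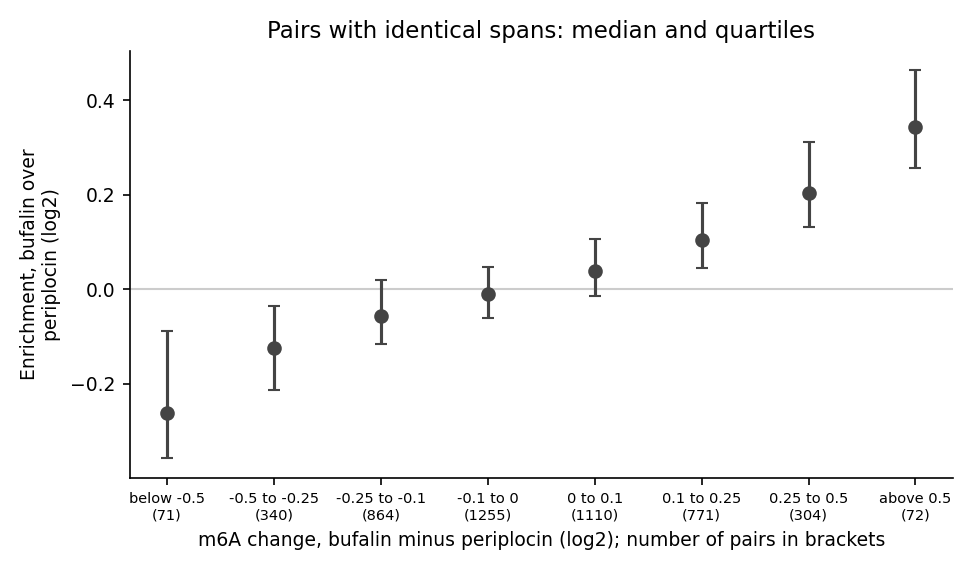
Log2 enrichment of bufalin over periplocin (median, with quartiles as bars) by bins of the difference of m6A change, bufalin minus periplocin, in the 4787 pairs with identical spans; numbers of pairs stand in brackets. The median climbs from -0.26 in the lowest bin to 0.34 in the highest.

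The machinery of m6A itself carried 33 pairs on 14 of its 22 listed genes, and none was called with either compound. Their median change was -0.04 with both compounds, against -0.03 with bufalin and -0.02 with periplocin over all pairs, and their median difference was -0.05. Among the writers, Mettl3 had 0.10 with bufalin and 0.17 with periplocin at its 1 pair. Mettl14 had -0.02 and -0.20 at its first pair and -0.14 and -0.16 at its second. Virma, the scaffold of the writer complex, had 4 pairs whose differences ran between -0.27 and 0.46. Zc3h13, which holds the complex in the nucleus, had 8 pairs with changes between -0.23 and 0.20 with bufalin and between -0.11 and 0.18 with periplocin.

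Wtap, an adaptor of the complex, had -0.21 with bufalin and -0.15 with periplocin at 1 pair and -0.05 and 0.00 at the other. Cbll1, a ubiquitin ligase of the complex, had the lowest difference of this list, -0.56. Its first pair had -0.66 with bufalin and -0.28 with periplocin, and its second -0.39 and 0.16. Among the readers, Ythdf1 had 0.13 with bufalin and -0.29 with periplocin. Ythdf2 had -0.34 and 0.04 at its first pair, -0.19 and 0.22 at its second and 0.15 and 0.10 at the last. The first of the Ythdf3 pairs had 0.00 with bufalin and 0.32 with periplocin the second -0.43 and -0.76 and the last -0.14 and -0.16. The nuclear reader Ythdc1 had 0.01 and 0.08 at 1 pair and -0.03 and -0.04 at the other. Igf2bp1 and Igf2bp3, which stabilise marked mRNA, had 0.03 and -0.20 with bufalin and 0.33 and -0.14 with periplocin, and Hnrnpc, whose binding follows m6A-dependent RNA folds, had -0.40 with bufalin and -0.47 with periplocin. Fmr1, an RNA binding protein that recognises m6A, held the 1 pair of the list with an unadjusted p under 0.05, with a change of -0.12 with bufalin and -0.30 with periplocin (p of 0.370 and 0.0331).

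No Na/K-ATPase subunit had a pair. The list of pump and ion transport genes had 18 pairs on 9 of 21 genes, with a median change of -0.10 with bufalin and -0.03 with periplocin and a median difference of -0.05. None had an unadjusted p under 0.05. Atp2a2, the calcium pump of the sarcoplasmic reticulum, had -0.04 with bufalin and 0.01 with periplocin. Slc8a1, the sodium and calcium exchanger that acts downstream of the pump in heart muscle, had 0.08 and 0.03. Atp2b1, a plasma membrane calcium pump, had 5 pairs, all below 0 with bufalin, the highest at -0.08, and between -0.55 and 0.03 with periplocin. Its relative Atp2b4 had 0.10 with bufalin and -0.01 with periplocin at 1 pair and -0.09 and 0.12 at the other. Itpr1, a calcium release channel, had 4 pairs with differences between -0.06 and 0.05, and Cacna1c, the pore subunit of the L-type calcium channel, had 2 with differences of -0.01 and -0.12. Slc12a2, a chloride cotransporter, had -0.15 with bufalin and -0.14 with periplocin, and Stim1, a sensor of calcium stores, had 0.12 and 0.17. Few pairs of this list had an enrichment of at least 2 in both lists, all of them on Atp2b1 and Atp2b4. Their differences were -0.05, 0.11 and 0.24. The median of 0.11, of opposite sign, is thus the value of 1 Atp2b4 pair and does not speak for the list.

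Pairs of immediate early and stress response genes lay lower with bufalin more often than not. The 24 pairs on 17 of 28 genes had a median change of -0.01 with bufalin and 0.08 with periplocin, and the difference was below 0 in 17 of 24, against 3918 of 7339 pairs overall. Egr1 had 2 pairs with differences of -0.27 and -0.19, and its first reached an unadjusted p of 0.0479 with bufalin. Klf4 had differences of -0.22 and -0.17 and Fos of -0.21 and -0.06. Myc ran the other way, with 0.00 with bufalin and -0.15 with periplocin. The 18 pairs of MAP kinase phosphatases and feedback regulators had a median change of -0.13 with bufalin and 0.01 with periplocin, and a difference below 0 in 13 of 18. Spry4, a feedback inhibitor of receptor tyrosine kinases, had differences of -0.59 and -0.23, whereas Dusp1, a phosphatase of stress kinases, had -0.13 with bufalin and -0.42 with periplocin. No pair of either list was called. Among immediate early pairs with an enrichment of at least 2 in both lists the median difference was 0.05, against -0.07 for all 24. The lean was not particular to these genes. Below 0 were 12 of 18 ion transport pairs, 43 of 69 of histone and DNA enzymes and 19 of 30 of growth factor kinases. So were 23 of 39 of the cell cycle and p53 and 19 of 33 of the m6A machinery. Fewer were below 0 on giant cytoskeletal linkers (38 of 99), TGF-beta genes (15 of 34) and Wnt, Notch, Hippo and hedgehog genes (14 of 39).

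The other 6 lists had median differences between -0.06 and 0.04, against -0.01 over all pairs, and no called pair. Growth factor kinases and adaptors had 30 pairs, and Igf1r, the receptor of insulin-like growth factor, had a change of 1.07 with bufalin and 0.67 with periplocin at 1 of them (p of 0.00148 and 0.0794). Irs2, its adaptor, had 0.03 with bufalin and 0.69 with periplocin (p of 0.978 and 0.01). Cdk12, a kinase of transcription elongation, had 0.35 with bufalin and 0.95 with periplocin (p of 0.247 and 0.00513). Mki67, a marker of proliferating cells, had 3 pairs with a p under 0.05 in a list, of which 2 were above control and 1 below with either compound. Smad2, which carries TGF-beta signals, had -0.18 with bufalin and -0.47 with periplocin (p of 0.362 and 0.00427). Histone and DNA modifying enzymes had 69 pairs and Wnt, Notch, Hippo and hedgehog genes 39, with at most 3 pairs under an unadjusted p of 0.05 with a compound.

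Genes with many pairs gave several values for 1 gene. Ahnak, a giant scaffold protein, had 25 pairs, the most of any gene, with changes between -0.18 and 0.28 with bufalin and between -0.34 and 0.21 with periplocin. The difference was above 0 in 21 of its 25 pairs, against 3414 of 7339 over all pairs, with a median of 0.07. These 25 pairs share the same libraries and are not replicates. Ahnak RNA differed from control by 0.06 ± 0.08 with bufalin and 0.24 ± 0.04 with periplocin (adjusted p = 5.04e-06, DESeq2, the authors' deposited table). Macf1, which links actin to microtubules, had 17 pairs with a median difference of 0.01, and the kinetochore protein Cenpf had 15 with a median of -0.03. Golgb1, a Golgi tether, had 14 with a median of -0.06, and the cadherin Fat1 had 13 with a median of -0.01. Within Cenpf the difference ran between -0.53 and 0.46 over its 15 pairs. A range of single pairs is expected to be wider than that of medians, so it is not set against the medians of these genes.

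Over the 146 genes with at least 5 pairs the median difference per gene had quartiles of -0.07 and 0.04. Its extremes, named after their values were seen, were -0.22 on Aspm, a protein of spindle poles, and 0.18 on Nrip1, a nuclear receptor corepressor. Tgs1, which methylates the cap of small nuclear RNAs, had a difference below 0 in all 5 pairs, with a median of -0.20. The pairs of Aspm were split, with 2 of 7 above 0, and the highest Nrip1 difference, 0.91, came from a pair with a change of -0.34 with bufalin and -1.25 with periplocin.

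The clustered protocadherins, cell adhesion proteins of neurons whose transcripts share their last exons, showed 1 site under many names. A site at chr18:30213222-30213454 was listed as 15 pairs under 15 names of the alpha cluster. The change was above 0 with bufalin in each of them, from 0.13 to 0.31, and below 0 with periplocin, from -0.49 to -0.22. The lowest unadjusted p was 0.665 with bufalin and 0.251 with periplocin. Counted by name, this site supplied 11 of the 149 pairs in which bufalin was higher by at least 0.5. A site of the gamma cluster was listed under 13 names, with differences between 0.05 and 0.20. In all, 61 pairs shared exon bases with another pair, so pairs are not independent sites.

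**Figure D5:**
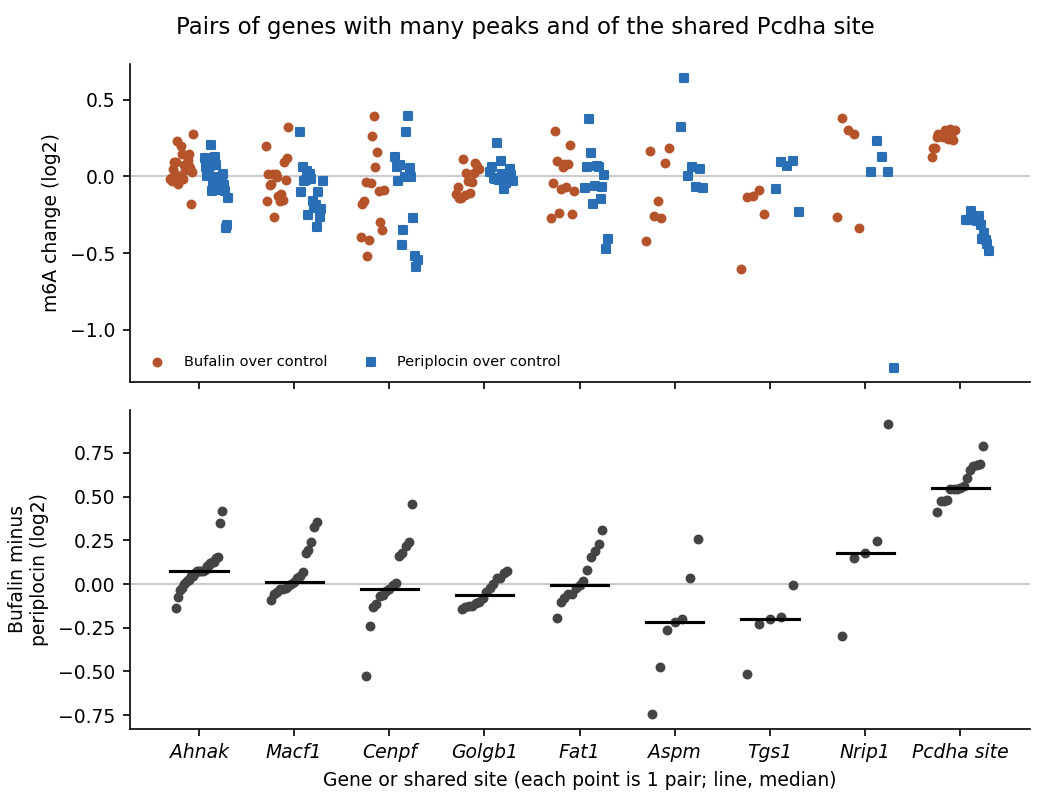
m6A change from control (top; bufalin circles left of periplocin squares) and difference of bufalin minus periplocin (bottom; lines are medians), both on the log2 scale, with 1 point per pair. Ahnak has 21 of 25 differences above 0, against 3414 of 7339 over all pairs, and the 15 names of the protocadherin alpha site lie together above 0.

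RNA levels were called changed on few genes with pairs, and m6A of those genes was not called. The values are those of the authors' deposited DESeq2 tables, where fewer cells of a type and less RNA per cell cannot be told apart. With bufalin, 9 genes with a pair had an adjusted p under 0.05, 5 of them higher. The 9 genes are 0.419% of the 2147 genes with a pair and an adjusted p, against 0.301% of all genes with one. Of all genes with an adjusted p, 0.181% were called higher. With periplocin 40 genes were called, which is 0.936% of 4273 genes with a pair and an adjusted p, against 0.538% of all genes with one. Of the 40, 39 were higher, and 0.514% of all genes with an adjusted p were called higher. The 17 pairs on the genes called with bufalin had a median m6A change of -0.01 and held no unadjusted p under 0.05. The 139 pairs on the genes called with periplocin had a median of -0.00 and held 8.

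Among the genes called with bufalin, the osteopontin gene Spp1 differed in RNA by 0.56 ± 0.11 with bufalin (adjusted p = 0.000202, DESeq2, the authors' deposited table) and by 0.16 ± 0.14 with periplocin. Its m6A pair had 0.08 with bufalin and 0.05 with periplocin. Among those called with periplocin, the immediate early gene Fosb differed by 1.20 ± 0.38 with bufalin, without an adjusted p in that table, and by 2.18 ± 0.22 with periplocin (adjusted p = 1.49e-19, DESeq2, the authors' deposited table). Its m6A pair had -0.12 with bufalin and 0.08 with periplocin. Myc differed in RNA by 0.03 ± 0.13 with bufalin, also without an adjusted p, and by 0.86 ± 0.12 with periplocin. Dusp1 differed by -0.14 ± 0.12 with bufalin and 0.51 ± 0.08 with periplocin. Neither gene had an m6A pair with an unadjusted p under 0.05.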

How the data were processed

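MeRIP-seq of bufalin, periplocin and control cells gave 18 libraries, grouped as labelled in 6 groups of 3. The build was rn6 and the tools HISAT2, StringTie and DESeq, per the submitters' processing notes. Tool versions, peak caller and any pooling of replicates: not given in the sources used here.

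In the peak lists, the deposited fold enrichment was taken as an IP over input ratio. Per the file headers, log10 columns give p and FDR, once for enrichment and once for its change. The change itself is the authors' log2 value. In the expression tables the authors deposited the mean signal (counts divided by size factors, as DESeq2 defines it), log2 fold changes with standard errors, the Wald score, p-values and Benjamini-Hochberg adjusted p-values. Whether input or IP libraries were used is not stated. Signs were taken from the fold changes. RNA means are averaged over both tables. Depth per library was not analysed here.

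Pairs, differences and counts were computed with Python 3.11.15, numpy 2.4.6 and pandas 2.3.3 (figures: matplotlib 3.10.9). The pairing was tested on simulated data. No test of the within-pair difference was made, because a peak has no standard error. Calls are the authors' FDR or adjusted p under 0.05. Coordinates are 1-based. RefSeq GRCr8 matched 99.5% of the gene names and was used for gene type only. Sequences and transcript features were left out, since no rn6 genome was used.

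Named pairs followed a rule: the largest called changes per compound, the 5 highest and 5 lowest enrichment differences, the 5 pairs highest in both lists, m6A and ion transport pairs, and the 5 genes with the most pairs. Others are marked. Not every pair under this rule is reported here; the counts hold them all. Of 10 gene lists with 254 genes, members with a pair are counted. The pairs, rule and lists were chosen with earlier results of these data known. At the overlap threshold, Cxxc5 was just inside (50.0%) and Dusp5 just outside (49.7%). Alternatives covered overlap, span, enrichment, length and call thresholds.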

Additional observations from a re-analysis of the deposited data

How the results depend on the processing

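Of 138 values recomputed under 11 settings, 121 stayed within 0.1 (log2) or 1.5 times and 17 moved. The number of pairs was 4787 with identical spans, 2499 with an enrichment of at least 2 in both lists and 3534 with at least 151 exon bases. Called bufalin pairs came to 1 with identical spans, 0 at the enrichment minimum, 1 at the length minimum and 0 at an FDR under 0.01. Called periplocin pairs came to 0 at the enrichment minimum, 0 at the length minimum, 0 with a change of at least 0.5 besides the FDR, and 0 without the value at the lowest log10 p, an alternative chosen after seeing the data. RNA-called genes with a pair came to 5 with bufalin and 24 with periplocin at the enrichment minimum, and 23 with periplocin at the length minimum. The settings on span, enrichment and length leave fewer pairs, and the others change the call itself. The median difference stayed between -0.02 and -0.01 for the change and between 0.01 and 0.02 for log2 enrichment. Among list medians, ion transport moved to 0.11 at the enrichment minimum, which is the value of 1 Atp2b4 pair among the few left. Immediate early genes moved to 0.05 at the enrichment minimum and to 0.05 at the length minimum. Each of these medians had the opposite sign. Further medians near 0 changed sign by less than 0.1: that of the m6A list reached 0.01 and that of TGF-beta genes -0.07. No paired analysis was possible because the files hold 1 value per comparison and none per replicate, and for the same reason no replicate could be left out. The spread of the difference was widest on genes with low RNA and on short peaks.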

Other observations

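A peak of the pre-mRNA splicing gene Crnkl1 (chr3:140127459-140128269) was high in both lists, with an enrichment of 6.19 with bufalin and 4.26 with periplocin, and its m6A change was -0.26 with bufalin and 0.00 with periplocin. Its unadjusted p was 0.0105 with bufalin and 0.0316 with periplocin, although the change with periplocin was near 0. The same stretch was listed again under LOC102548514, whose RNA mean was 0. The 14 pairs on 13 genes with an RNA mean under 10 were those of clustered protocadherins and of LOC102548514.

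Cyb5r3, a reductase of cytochrome b5, was another pair with an unadjusted p under 0.05 in both lists and changes of opposite sign, -0.01 with bufalin and 0.12 with periplocin (p of 0.0195 and 0.0120). Changes under 0.05 in size carried a p under 0.05 in 5 pairs with bufalin and 10 with periplocin.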
